A study of Mus musculus with 6 samples.

Results

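Mouse embryoid bodies that had received retinoic acid (RA) from microspheres inside them were compared with bodies that held control microspheres, for 9 genes of the pluripotency network. The genes were those of the core factors Pou5f1 (Oct4), Sox2, Nanog and Sall4, of Utf1, L1td1 and Zfp296, and of the paired factors Dppa2 and Dppa4, all of which are known in naive and in primed pluripotent cells. They were listed by name, with earlier results of these arrays known. Of the 18193 genes that the array's annotation names singly, these are 9. They are read by 13 of its 45101 probe sets, and each of the 9 had at least 1 probe set above the signal filter described below.

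The bodies were made from D3 mouse embryonic stem cells, an established line, which per the labels were kept undifferentiated with LIF, a cytokine that maintains stem cells, and were then aggregated without LIF under rotation. Both groups held gelatin-coated microspheres and were sampled at day 10. The 3 control samples had microspheres with the dye CellTracker Red, and the 3 RA samples had microspheres loaded with RA. The labels give no genetic change in either group. They describe a range of microsphere to cell ratios and rotation speeds without saying which applied to these samples, and the RA dose is not given in the sources used here. Each sample was hybridised to 1 Affymetrix array, and no undifferentiated cells are among the 6 arrays. The labels call the samples triplicates without saying that they were separate cultures, so the spread behind each p-value may be a technical one.

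Oct4, Sox2 and Nanog are DNA-binding proteins that sit together at many regulatory regions of pluripotent cells, including those of their own genes. They keep the self-renewal programme running and are switched off as cells leave pluripotency. Oct4 and Nanog are present in the naive state of the early blastocyst and in the primed epiblast that follows, whereas a separate group of naive factors is lost on that way. Sox2 is also a gene of neural progenitors. RA is widely used to drive stem cells out of pluripotency, and the Pou5f1 gene is a known target of nuclear receptors that bind hormone response elements in its promoter.

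Promoter stretches of members are shown because this network is described as regulating its own genes and because RA acts through nuclear receptors. The sequences are RefSeq windows of GRCm38.p6, and 6 of the 9 members had one: Pou5f1, Sox2, Nanog, Utf1, L1td1 and Zfp296. The 250 bases before each annotated start were searched on both strands. All printed stretches are on the plus strand, end before the start and run 5′ to 3′. Capitals mark AGGTCA, the core letters bound by many nuclear receptors, in Pou5f1 (chr17:35505939-35506031). They mark TTTGCATNACAATG, an octamer core read on the opposite strand and a Sox core side by side, in Nanog (chr6:122707354-122707487). They mark the octamer core ATGCAAA in Sox2 (chr3:34649836-34649962) and the full octamer ATGCAAAT, read on the opposite strand, in Zfp296 (chr7:19577116-19577243).
Pou5f1: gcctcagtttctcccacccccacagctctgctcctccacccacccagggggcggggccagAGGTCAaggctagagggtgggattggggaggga
Nanog: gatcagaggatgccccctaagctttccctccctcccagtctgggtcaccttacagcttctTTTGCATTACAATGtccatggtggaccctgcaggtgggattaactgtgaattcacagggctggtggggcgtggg
Sox2: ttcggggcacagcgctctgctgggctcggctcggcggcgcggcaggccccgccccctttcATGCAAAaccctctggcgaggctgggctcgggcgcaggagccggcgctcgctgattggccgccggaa
Zfp296: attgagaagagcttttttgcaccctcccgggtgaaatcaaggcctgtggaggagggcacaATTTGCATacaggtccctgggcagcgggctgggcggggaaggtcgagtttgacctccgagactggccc

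The octamer core ATGCAAA was present before the starts of 3 of the 6 members (Nanog, Sox2 and Zfp296) and in 4.12% of all 32851 windows. The full octamer ATGCAAAT, which contains the core, was found in Zfp296 alone among the members and in 1.60% of windows. TTTGCATNACAATG occurred in 2 of the 32851 windows, which are the overlapping windows of 2 annotated starts of Nanog. Its Sox part, ACAATG, occurred in 10.7% of windows and in 2 members, Nanog and a second annotated start of Pou5f1. AGGTCA occurred in 14.0% of windows and in 4 members, Pou5f1, Nanog, Sox2 and Zfp296. These matches describe the letters of the windows and were not set against the measured levels.

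Values are given as log2(intensity + 16) after quantile normalization between arrays, called the log2 level below, and differences are RA minus control on that scale. For genes, rose and fell mean higher and lower with RA than in controls at day 10. They do not mean a change over time, because no earlier time is among the 6 arrays. The median deposited intensity ranged from 41.4 to 65.5 over the 6 arrays, lowest on control array 3. The ratio of 3-prime to 5-prime signal for Gapdh, which rises as RNA breaks down, was 34.0 on RA array 1 and 3.06 to 4.74 elsewhere. Values of members that turn on RA array 1 are therefore also given without it. The same ratio for actin was 3.35 to 4.24 on the control arrays and 7.42, 4.35 and 4.90 on RA arrays 1, 2 and 3. By actin every RA array thus lay above every control. The part of RNA quality in the differences was not tested. As differentiating bodies, the control samples carried heart muscle and blood RNA, with a log2 level of 12.01 for Myl7, an atrial myosin light chain, and 13.19 for the embryonic globin Hbb-y. With RA these 2 genes lay at 6.95 and 6.71. Of 8 cardiac markers measured, 6 were lower with RA and 0 higher at a limma adjusted p below 0.05. Of 6 blood markers, 4 were lower and 0 higher. The rest, Nkx2-5, Nppa, Gata1 and Klf1, did not pass. Among all genes tested 15.6% were lower and 14.3% higher. Each array measured whole bodies, so fewer cells of a type and less RNA per cell cannot be told apart. The number of arrays, 3 in each group, limits the precision.

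Most of the core factors were higher with RA. Pou5f1, Sall4, L1td1 and Sox2 rose by 2.82 to 5.38 times, Nanog rose less, and Utf1 rose with a call at the edge of the threshold. Dppa2 went the other way and fell, but it kept its call in only 10 of 16 alternative settings of the processing. Neither Zfp296 nor Dppa4 passed the test. In counts, 6 of 9 members were higher and 1 was lower with RA at a limma adjusted p below 0.05. Over all 13608 genes tested, 14.3% were higher and 15.6% were lower. The median log2 difference was 0.94 over the members and 0.01 over all genes. The RA arrays lay wholly above the control arrays for 5 members and wholly below for 1, against 21.8% and 22.2% of all genes. A call together with at least a 2-fold rise was reached by 4 members and by 3.04% of all genes.

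**Figure D1:**
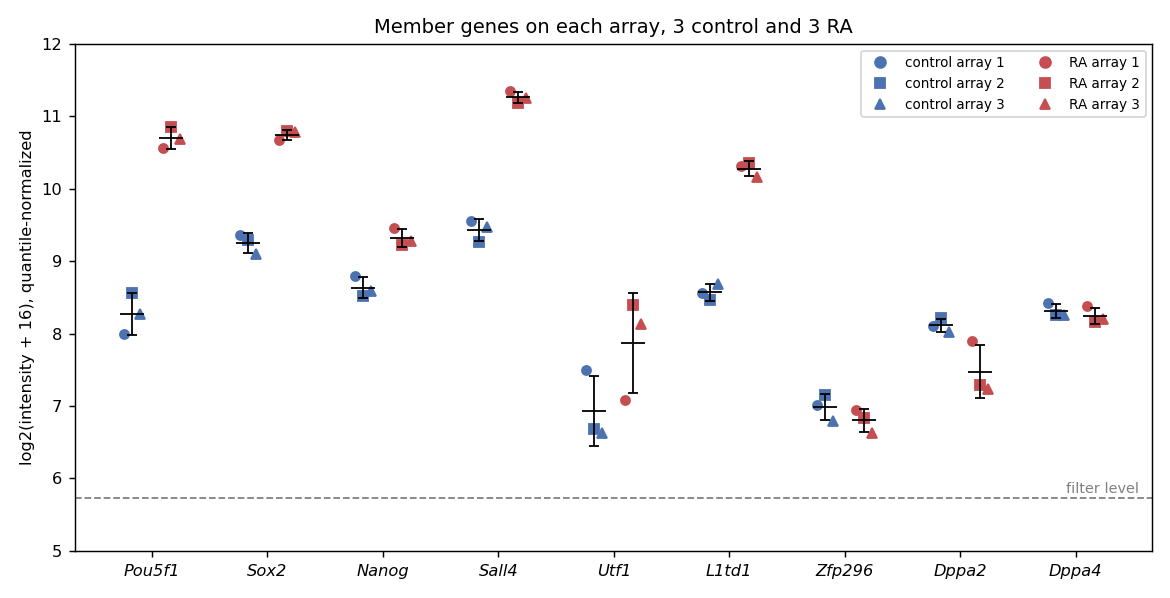
Log2 level of each member gene (vertical axis, quantile-normalized log2(intensity + 16)) on the 3 control arrays (blue) and the 3 RA arrays (red), with a marker shape for each replicate number and black bars for the mean ± SD. Pou5f1, Sox2, Nanog, Sall4 and L1td1 have every RA array above every control array, Dppa2 has every RA array below, and the dashed line is the filter level of 5.74.

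Pou5f1 encodes Oct4, the POU-domain factor without which the pluripotent inner cell mass does not form. Its deposited intensity was 258, 379 and 197 in the control samples and 1578, 2262 and 1906 in the RA samples, given here as replicates 1, 2 and 3 of each group. On the log2 scale the levels were 7.99, 8.56 and 8.27 in controls and 10.56, 10.86 and 10.69 with RA. The groups were far apart, and the spread was wider among the controls (SD 0.29) than among the RA arrays (SD 0.15). The log2 difference was 2.43 ± 0.14 (SE, n = 3 against 3), or 5.38 times higher (limma adjusted p = 2.52e-07). It was the 37th largest rise among the 13608 genes tested.

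Sox2 encodes the HMG-box factor that binds DNA next to Oct4. Its log2 levels were 9.36, 9.30 and 9.10 on the control arrays and 10.67, 10.79 and 10.78 on the RA arrays. The RA arrays lay close together (SD 0.07) and above every control. Sox2 was 2.82 times higher with RA, with a log2 difference of 1.50 ± 0.09 (SE, limma adjusted p = 5.04e-07). Because Sox2 also belongs to neural progenitors, markers of that cell type were read beside it. Of 11 listed markers 8 were measured, 6 of these rose and 0 fell. At an unadjusted limma p below 0.05 the counts were likewise 6 and 0. Sox3, 1 of the 6, is also counted among the epiblast genes below. Over the measured markers 75% rose and 0% fell, beside 14.3% and 15.6% of all genes tested. Their median was 1.13. Their summed log2 level was 9.56 to 9.87 on control arrays and 11.09 to 11.41 on RA arrays. Fabp7, which encodes a lipid-binding protein, had a log2 difference of 3.51 ± 0.21 (SE), Sox1 of 3.37 ± 0.31, Msi1 of 0.92 ± 0.12 and Sox21 of 1.36 ± 0.28. Pax6 (0.27 ± 0.21) and the intermediate filament gene Nes (0.02 ± 0.16) did not pass. The control means of Sox1 (4.87) and of Pax3 (5.71), which also rose, lay below the filter level of 5.74. Hes5, Olig2 and Nkx6-1 lay below the signal filter. The part of neural cells in the rise of Sox2 was not tested.

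Nanog encodes the homeodomain factor that completes the core trio. Its log2 levels were 8.79, 8.52 and 8.59 on the control arrays and 9.46, 9.23 and 9.28 on the RA arrays. The groups did not overlap, but the gap between the highest control and the lowest RA array was small. Nanog was 1.61 times higher with RA, with a log2 difference of 0.69 ± 0.11 (SE, limma adjusted p = 0.000844). It held 1027th place among all genes when ordered from the largest rise.

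Sall4 encodes a zinc-finger factor that works with Oct4 and Nanog. Its brighter probe set, 1424152_at, had log2 levels of 9.56, 9.26 and 9.48 in controls and 11.35, 11.19 and 11.25 with RA. All 3 RA arrays stood clear of the controls, and the gene was 3.56 times higher, a log2 difference of 1.83 ± 0.09 (SE, limma adjusted p = 1.08e-07). A second and much dimmer probe set, 1424153_s_at, had 6.02, 6.35 and 6.47 in controls and 6.89, 7.68 and 7.57 with RA. It rose as well, by less (log2 difference 1.10 ± 0.25, limma adjusted p = 0.00927 over probe sets), and its lowest RA value was on RA array 1. The log2 difference of this probe set was 1.36 without RA array 1 (limma adjusted p = 0.00243 over probe sets). Sall4 is also known from extraembryonic endoderm. All 11 listed visceral endoderm markers were measured, 5 of which rose and 5 fell. Each count is 45.5% of the list, beside 14.3% higher and 15.6% lower among all genes tested. Those that rose were the receptor genes Cubn (9.29 times higher) and Amn (7.65 times), the secreted inhibitor gene Cer1 (8.52 times) and the transcription factor genes Foxa2 (6.34 times) and Sox17 (4.34 times). The control means of Cer1 (5.62) and Amn (5.64) lay below the filter level. Those that fell were Afp, Ttr and Apoa1, which encode secreted proteins, and the transcription factor genes Gata6 and Hnf4a. The summed log2 level of the list was 14.63 to 14.75 on control arrays and 13.38 to 13.53 on RA arrays, and most of it came from Afp and Ttr, with control means of 13.38 and 13.47. The part of endoderm in the rise of Sall4 was not tested.

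L1td1 encodes an RNA-binding protein derived from a LINE-1 retrotransposon and is abundant in embryonic stem cells. Its log2 levels were 8.56, 8.46 and 8.69 in controls and 10.31, 10.36 and 10.16 with RA. The spread was close to 0.1 in each group (SD 0.11 in controls and 0.10 with RA), and the groups were well separated. L1td1 was 3.27 times higher, a log2 difference of 1.71 ± 0.10 (SE, limma adjusted p = 3.12e-07). Sall4, L1td1 and Sox2 were the 94th, 113th and 161st largest rises among all genes.

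Utf1 encodes a chromatin-bound factor of pluripotent cells whose gene is a known target of Oct4 and Sox2. Its brightest probe set, 1416899_at, had log2 levels of 7.49, 6.68 and 6.62 in the controls against 7.09, 8.39 and 8.14 with RA, in the order of replicates 1, 2 and 3. The groups overlapped, because RA array 1 lay below control array 1. The log2 difference was 0.94 ± 0.33 (SE), or 1.92 times, with a limma adjusted p of 0.0499 over genes. In the fit over probe sets the same probe set did not pass (adjusted p = 0.0681). A dimmer probe set, 1443786_at, had 6.21, 5.61 and 6.06 in controls and 7.28, 6.73 and 7.31 with RA. Here the groups did not overlap, RA array 1 was not low, and the rise passed (log2 difference 1.15 ± 0.26, limma adjusted p = 0.00878 over probe sets). The remaining probe set, 1458333_x_at, lay below the filter on all arrays, at 4.20 to 4.38. The call of the brightest probe set was lost when replicate 2 or 3 of either group was left out (adjusted p 0.145 to 0.183). Without RA array 1 its log2 difference was 1.34 (adjusted p = 0.00380).

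Zfp296 encodes a zinc-finger protein of pluripotent cells that is known to bind the naive factor Klf4. Its log2 levels were 7.02, 7.15 and 6.79 in controls and 6.94, 6.84 and 6.63 with RA. The groups overlapped, and the log2 difference was -0.19 with a 95% interval of -0.63 to 0.26 (limma adjusted p = 0.539). A rise of the size seen for Nanog, 0.69, lies outside that interval.

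Dppa2 and Dppa4 encode SAP-domain proteins that form a pair, bind chromatin at developmental genes and keep their promoters poised. The genes are neighbours on chromosome 16. Dppa4 had log2 levels of 8.42, 8.26 and 8.26 in controls and 8.38, 8.16 and 8.20 with RA. The groups overlapped, and the difference was -0.06 with a 95% interval of -0.34 to 0.21 (limma adjusted p = 0.745). Without scaling between arrays, where the median of all genes lay at 0.26, the difference of Dppa4 was 0.17 and that of Zfp296 was 0.02, and neither passed.

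Dppa2 was represented by probe set 1453223_s_at, with log2 levels of 8.10, 8.21 and 8.03 in the controls against 7.90, 7.30 and 7.23 with RA, in the order of replicates 1, 2 and 3. Every RA array lay below every control, but RA array 1 only narrowly so. Dppa2 fell by 0.64 ± 0.19 on the log2 scale (SE), or 1.56 times (limma adjusted p = 0.0218). The other probe set, 1429654_at, had 7.87, 6.98 and 6.74 in controls and 6.68, 6.54 and 6.79 with RA. Its groups overlapped, it had the same sign and it did not pass (log2 difference -0.52 ± 0.28, limma adjusted p = 0.218 over probe sets). The call of Dppa2 was lost when control array 1, control array 2, RA array 2 or RA array 3 was left out (log2 difference -0.64 to -0.52, adjusted p 0.0579 to 0.0853) and without scaling (-0.44, adjusted p = 0.291). Without RA array 1 the fall was larger, at -0.85 (adjusted p = 0.00222).

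**Figure D2:**
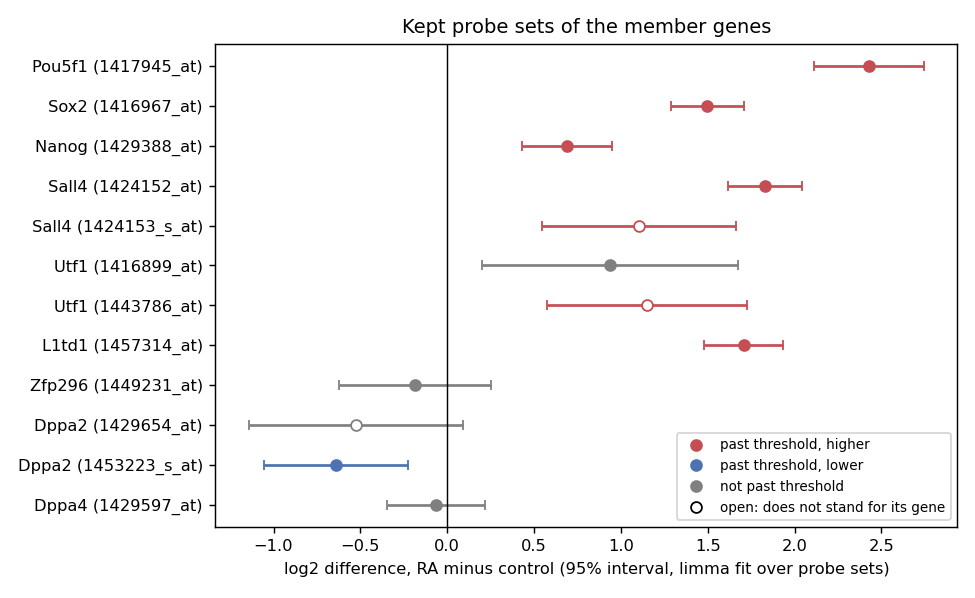
Log2 difference, RA minus control (horizontal axis), with its 95% interval for the 12 probe sets of the members that passed the filter, from the fit over all kept probe sets. Filled points stand for their gene, red and blue mark calls, and 7 probe sets were higher, 1 was lower and 4 did not pass.

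Of the 13 probe sets of the members, 12 were kept by the filter. In the fit over 27022 probe sets 7 of them were higher and 1 lower with RA, where 11.3% and 11.1% of all kept probe sets were so. The plot of probe set differences shows that all probe sets of Sall4, of Utf1 and of Dppa2 that were kept agreed in sign within each gene.

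Whether members changed by unequal amounts was read from differences between 2 members within each array, for 4 pairs. Pou5f1 minus Nanog was -0.80, 0.05 and -0.31 on the control arrays and 1.11, 1.63 and 1.41 on the RA arrays. The groups differed by 1.74 in this quantity and did not overlap. Pou5f1 minus Sox2 moved from -0.97 ± 0.34 to -0.04 ± 0.10 (SD, n = 3), again without overlap. Dppa4 minus Dppa2 was 0.31, 0.04 and 0.23 in controls and 0.48, 0.86 and 0.97 with RA, a difference of 0.58 between the groups. These 3 pairs each had an exact two-sided permutation p of 0.1, the smallest that 3 against 3 arrays allow, and an adjusted p of 0.133 over the 4 pairs. Pou5f1 minus Sall4 overlapped between groups (difference 0.60, exact permutation p = 0.2, adjusted 0.2). None of the 4 could pass a threshold of 0.05 in this design.

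Genes that mark the naive state moved in both directions, and the balance depended on the setting. Of 14 listed naive genes 13 were measured, 2 of which rose and 6 fell. The shares were 15.4% and 46.2%, beside 14.3% and 15.6% of all genes tested. The median log2 difference was -0.64, beside 0.01 over all genes. Dppa5a, a KH-domain protein of early embryonic cells, fell by 1.19 ± 0.08 on the log2 scale (SE, limma adjusted p = 1.35e-06). The Krüppel-like factor Klf2 fell by 1.17 ± 0.18, and the orphan receptor gene Nr0b1 (Dax1) fell by 1.43 ± 0.31 (adjusted p = 0.000472 and 0.00464). Klf4 rose by 0.65 ± 0.15 (adjusted p = 0.00721), so that the Krüppel-like factors moved in both directions. Without control array 2 or RA array 3, and with no filter, 3 naive genes were lower instead of 6. With no filter 3 were also higher, so that as many rose as fell. With the mean of a gene's kept probe sets 1 was higher instead of 2.

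Nearly all measured epiblast genes of the formative and primed states rose. Of 15 listed genes 14 were measured, 13 rose and 1 fell, with a median of 2.14. These are 92.9% and 7.14% of the measured genes, beside 14.3% and 15.6% of all genes tested. Levels of Dnmt3b, a de novo DNA methyltransferase, rose by 3.89 ± 0.13 on the log2 scale (SE), those of the growth factor Fgf5 by 3.82 ± 0.15 and those of the POU factor Pou3f1 by 3.74 ± 0.16. E-cadherin (Cdh1) rose by 1.56 ± 0.07. Their limma adjusted p was at most 3.17e-08. The control means of Fgf5 (5.85) and Pou3f1 (5.84) lay just above the filter level, so the size of these rises is open to background. Foxd3 and Zic2, which are counted among the 13 that rose, had control means of 5.03 and 5.57, below the filter level. The filter used the mean over 6 arrays, so Foxd3 and Zic2 were kept through their higher RA levels. The 1 gene that fell was Dnmt3a, read by its brightest probe set 1423063_at (log2 difference -1.21, adjusted p = 2.33e-05). Without any 1 of the control arrays another probe set, 1423064_at, was the brightest for Dnmt3a, and it had log2 differences of -0.09 to 0.21 and did not pass (adjusted p = 0.274 to 0.995). The probe sets of Dnmt3a thus gave different values.

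**Figure D3:**
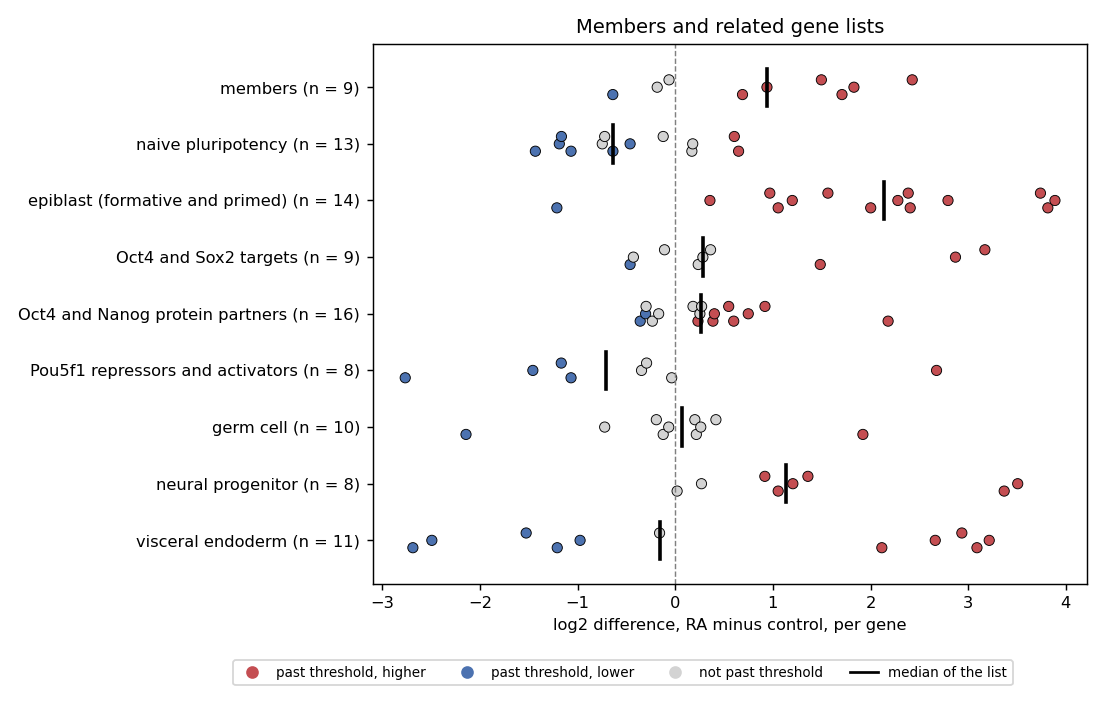
Log2 difference, RA minus control, for each measured gene (points) of the members and of 8 related lists, with calls in red (higher) and blue (lower) and the list median as a black bar. The members have a median of 0.94, between the naive list at -0.64 and the epiblast list at 2.14.

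Listed targets of Oct4 and Sox2 rose in part. Of 10 listed, 9 were measured, and 3 rose and 1 fell, with a median of 0.28. These are 33.3% and 11.1% of those measured, beside 14.3% and 15.6% of all genes tested. Trh, the thyrotropin-releasing hormone gene, rose by 3.17 ± 0.16 on the log2 scale (SE), the RNA-binding protein gene Lin28a by 2.87 ± 0.14, and the Nodal co-receptor gene Tdgf1 by 1.49 ± 0.16. Zfp42 (Rex1), which is also in the naive list, fell by 0.46 ± 0.16 (limma adjusted p = 0.0490), and this call was lost without scaling and in most other settings. Fgf4 (0.28 ± 0.20) and Fbxo15 (0.24 ± 0.22), whose enhancers are textbook sites of joint Oct4 and Sox2 binding, did not pass.

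Among proteins known to bind Oct4 or Nanog, 16 of 17 were measured, 8 rose and 2 fell, with a median of 0.26. The shares were 50% and 12.5%, beside 14.3% and 15.6% of all genes tested. Sall1, a relative of Sall4, rose by 2.18 ± 0.11 on the log2 scale (SE, limma adjusted p = 8.93e-08). Rif1, a protein of telomeres and replication timing, rose by 0.92 ± 0.09, the zinc-finger gene Zfp281 by 0.55 ± 0.11 and the deacetylase gene Hdac1 by 0.40 ± 0.08. The 2 that fell were Thap11 (Ronin), by 0.30 ± 0.08, and the remodeller gene Smarca4 (Brg1), by 0.36 ± 0.11. Without scaling 6 rose and 0 fell, and the count of those that fell was 0 or 1 in 9 of the 16 alternatives.

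Among nuclear receptors and other factors known to act on the Pou5f1 gene, 1 rose and 4 fell. These are 12.5% and 50% of the 8 measured of 10 listed, beside 14.3% and 15.6% of all genes tested, and the median was -0.71. Nr6a1 encodes GCNF, an orphan receptor known to repress Pou5f1 as stem cells differentiate. It was at 7.76 in controls and 10.44 with RA, 6.39 times higher (log2 difference 2.68 ± 0.11, SE, limma adjusted p = 2.26e-08), so the gene of this repressor and Pou5f1 were high on the same arrays. Nr2f2 and Nr2f1 encode the COUP-TF receptors, which also repress Pou5f1, and fell by 1.46 ± 0.15 and 1.17 ± 0.20. Rarb, an RA receptor gene, fell by 2.77 ± 0.26, to an RA mean of 5.23 that is below the filter level. Nr5a2 (Lrh-1), an activator of Pou5f1, fell by 1.07 ± 0.33 with overlapping arrays (adjusted p = 0.0306).

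Listed genes downstream of Dppa2 and Dppa4, mostly genes of the 2-cell stage, were measured close to the filter level. The list also holds Nkx2-5, better known as a cardiac factor and also among the cardiac markers. Of 9 listed, 4 were measured, and 0 rose and 0 fell, also at an unadjusted limma p below 0.05. Among all genes tested 14.3% were higher and 15.6% lower at the adjusted threshold. The group means of Duxf3, Zfp352, Tcstv1 and Nkx2-5 lay between 6.04 and 6.61. Their log2 differences ran from -0.08 to 0.40.

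Germ cells express Pou5f1, Nanog, Dppa2 and Dppa4 as well. Of 13 listed germ cell genes 10 were measured, 1 rose and 1 fell, with a median of 0.07. These are 10% and 10% of the measured genes, below the 14.3% and 15.6% of all genes tested. With the filter at the 60th percentile 2 rose and 0 fell. Likewise 2 rose with the mean of a gene's kept probe sets or with eBayes without trend. Sycp3, a protein of the meiotic chromosome axis, rose by 1.92 ± 0.18 on the log2 scale (SE), and Stra8, an RA-induced gene of meiotic entry, fell by 2.14 ± 0.30, to an RA mean of 5.04 that is below the filter level. Prdm1 (0.42 ± 0.15) and Tfap2c (0.26 ± 0.13), factors of early germ cells, did not pass, and Ddx4 and Mael lay below the filter. The summed log2 level of the list was 10.55 to 10.71 on control arrays and 10.72 to 10.81 on RA arrays. The part of germ cells in the changes of the members was not tested.

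The protein-coding genes beside the members on their chromosomes were read for the same arrays. Leaving out the members themselves, 32 different neighbours were listed, 2 on each side, and 26 were measured. Of these 3 rose and 4 fell, beside 14.3% and 15.6% of all genes tested, so the calls were near the share over all genes. Their median log2 difference was 0.04. Beside Pou5f1 on chromosome 17, the genes H2-Q10, Tcf19 and Cchcr1 were lower with RA, by 0.78 ± 0.19, 1.20 ± 0.11 and 1.48 ± 0.33 on the log2 scale (limma adjusted p = 0.0100, 1.26e-05 and 0.00535). The RA mean of Cchcr1, 5.31, lay below the filter level. All 3 thus lay opposite in sign to Pou5f1. Beside Nanog on chromosome 6, the glucose transporter gene Slc2a3 rose by 0.86 ± 0.07 and Foxj2 by 0.37 ± 0.13 (adjusted p = 2.80e-06 and 0.0471), while the pluripotency genes Gdf3 (0.36 ± 0.16) and Dppa3 (-0.12 ± 0.16) did not pass. No measured neighbour of Sox2, Utf1, L1td1 or Zfp296 passed. Tshz2 near Sall4 was lower (-1.28 ± 0.22), Nectin3 near Dppa4 was higher (0.58 ± 0.14), and Morc1, next to Dppa2, had -0.60 ± 0.26 and did not pass (adjusted p = 0.108).

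**Figure D4:**
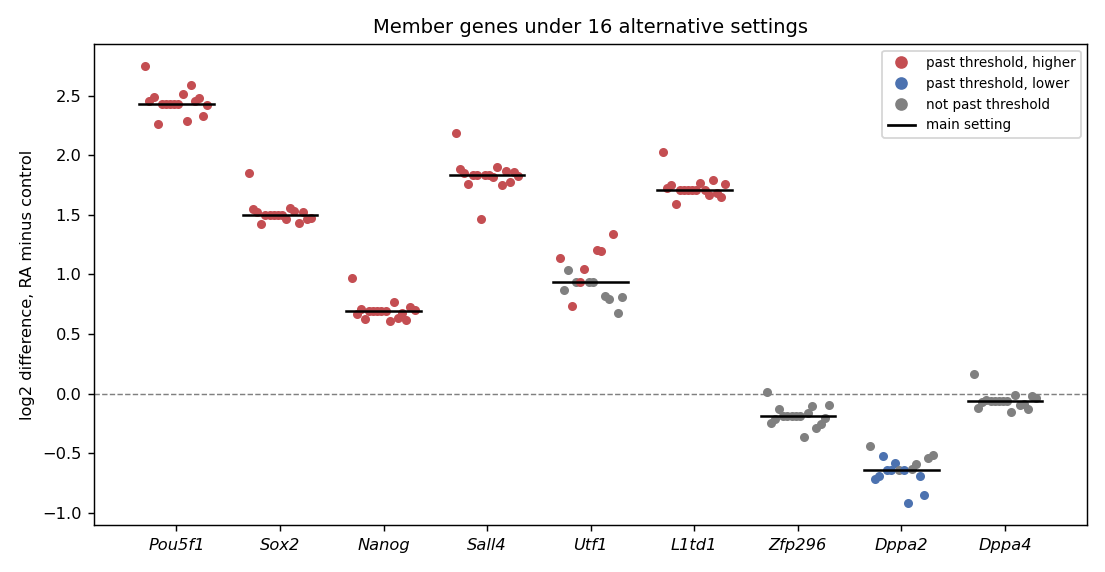
Log2 difference, RA minus control, of each member gene under 16 alternative settings of scaling, pseudocount, filter, probe set choice, model and left-out arrays (points), with the main value as a black line. Pou5f1, Sox2, Nanog, Sall4 and L1td1 are past the threshold in each of the 16, Utf1 in 7 and Dppa2 in 10, and Zfp296 and Dppa4 in none.

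In the plot of alternative settings, 5 rises held their call throughout. The lowest log2 difference over the 16 alternatives was 2.26 for Pou5f1, 1.47 for Sall4, 1.59 for L1td1, 1.43 for Sox2 and 0.60 for Nanog. The highest adjusted p of these 5 genes was 0.0105, for Nanog.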

How the data were processed

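Biotin-labelled cRNA was hybridised to the arrays, which per the labels were processed with Affymetrix GCOS software at default settings. The authors deposited 1 linear intensity per probe set. Neither the GCOS version nor its signal parameters are stated in the sources used here. Detection calls were not used. Trimmed means (2% off each end) ranged from 108 to 191, so the deposited intensities were not scaled between arrays. Groups and replicate numbers came from the sample titles.

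The 64 control probe sets were left out. Values were transformed to log2(intensity + 16), quantile-normalized and kept above the 40th percentile of the mean over 6 arrays (a log2 level of 5.74), which left 27022 probe sets. The pseudocount understates changes of dim genes. The array annotation gives 34945 probe sets 1 symbol, 932 several and 9160 none. The brightest kept probe set with 1 symbol stood for its gene. RA and control arrays were tested against each other in limma 3.58.1 under R 4.3.3 (lmFit, eBayes with trend, two-sided), with Benjamini-Hochberg adjustment over all 13608 genes or 27022 probe sets and a threshold of 0.05. The procedure was tested on simulated data. The summed level of a list is log2 of the sum of its measured genes' unlogged values. Named genes were all members and their neighbours, up to 4 list genes with the smallest p, and the 5 closest profiles to Pou5f1 and to Dppa2. Other list genes that are named were picked after their values were seen. RefSeq GRCm38.p6 gave gene order, chromosomes and promoter windows, and all 13 member probe sets matched it by gene identifier. The members and lists were chosen with earlier results of these data known. Same-numbered arrays did not deviate together (correlations -0.09 to -0.01), so replicate numbers were not used as pairs.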

Additional observations from a re-analysis of the deposited data

How the results depend on the processing

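Each result was recomputed under 16 alternatives. The rises of Pou5f1, Sox2, Nanog, Sall4 and L1td1 kept their direction and call in all 16, and Zfp296 and Dppa4 did not pass in any. Utf1 did not pass with arrays scaled to a common trimmed mean (0.87, limma adjusted p = 0.0557) or a pseudocount of 1 (1.03, adjusted p = 0.0553). At a log2 difference of 0.94 it also did not pass with no filter (adjusted p = 0.0893), with eBayes without trend (0.127) or with the replicate block (0.0827). Without scaling Dppa2 moved to -0.44 (adjusted p = 0.291), and without trend it stayed at -0.64 (adjusted p = 0.0547). The count of members lower was then 0 in both settings. Without scaling 651 genes were lower in place of 2127, 1750 were higher, and the median of all genes was 0.26; the cause was not tested for any of these. Leaving out 1 array at a time gave 5 to 6 members higher and 0 to 1 lower. It gave 0.675 to 1.34 for Utf1 and -0.85 to -0.52 for Dppa2, and 1475 to 1837 genes higher and 1681 to 1951 lower. With the replicate block 5 members were higher and 1 lower, and the other members' calls were unchanged. Replicate numbers were not shown to pair the samples. Probe sets near the filter level, such as those of the 2-cell stage genes, have little signal over background, and the number of arrays, 3 a group, limits the precision.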

Other observations

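The genes whose 6 log2 levels, each centred on its own mean, lay closest to those of Pou5f1 were Rhox6, Gng3, Calcr, Snhg3 and Npl, out of 13608 genes. Their root mean square distance to Pou5f1 was 0.15 to 0.19 over the 6 arrays. Rhox6, an X-linked homeobox gene, was at 6.06 ± 0.21 in controls and 8.57 ± 0.23 with RA (SD, n = 3). Calcr, the calcitonin receptor gene, was at 5.87 ± 0.27 and 8.14 ± 0.09, and Snhg3, a small nucleolar RNA host gene, was at 7.75 ± 0.11 and 9.94 ± 0.26. The control means of Calcr and Gng3 lay just above the filter level of 5.74, so the size of their rise is open to background.

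Closest to Dppa2 were Mpv17l2, Pter, Pomk, Thbs1 and Ehhadh, at distances of 0.05 to 0.10. Mpv17l2, Pter and Pomk passed as lower (limma adjusted p = 0.0167 to 0.0210), and Thbs1 and Ehhadh did not (0.154 and 0.0787). The RA mean of Ehhadh, 5.55, lay below the filter level.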
